A study of Mus musculus with 8 samples.

Results

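The genes examined are 10 regulators of entry into the cell cycle: the cyclin-dependent kinase (CDK) inhibitors Cdkn1a, Cdkn1b, Cdkn1c, Cdkn2c and Cdkn2d, the D-type cyclins Ccnd1, Ccnd2 and Ccnd3, and the kinases Cdk4 and Cdk6. They were listed by name, with no measured value in the rule, and are 10 of the 32285 genes in the feature list of each library. Their raw counts of unique molecular identifiers (UMIs, each tagging 1 captured transcript) were followed through the progenitor classes of mouse bone marrow and across 4 ages.

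D-type cyclins bind Cdk4 and Cdk6 in response to growth signals, and the active kinases phosphorylate the retinoblastoma protein, which releases E2F transcription factors and lets a cell leave G1 for S phase. Inhibitors of the INK4 family, among them Cdkn2c (p18) and Cdkn2d (p19), bind Cdk4 and Cdk6 themselves, whereas the Cip and Kip proteins Cdkn1a (p21), Cdkn1b (p27) and Cdkn1c (p57) bind complexes of cyclin and kinase. Adult haematopoietic stem cells (HSC) are mostly quiescent, and Cdkn1c in particular is known for its part in keeping them so, while their progeny divide often.

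Lineage-negative, c-Kit+ bone marrow cells of 8 wild-type mice were captured, 1 mouse per library. The mice were young (14 weeks), middle-aged (50 weeks), old (78 weeks for the male, 79 weeks for the female) or very old (95 weeks), with 1 male and 1 female at each age, and the labels give no treatment or modified allele. The question asked of the counts was how genes of stem and progenitor cells differ with age. Of 59465 barcodes, 59136 with 200 or more detected genes were kept, the libraries held 83062003 to 150135029 UMIs, and the median cell had 8505 to 14951. Barcodes found in more than 1 library numbered 462, at most 27 for any pair of libraries, or 0.382% of the smaller. The very old libraries belong to another library series by their labels, so an age of 95 weeks and library series cannot be told apart. The labels do not describe the 2 mice of an age as replicates beyond their sex, and p-values measure the spread between these single mice. In the age comparisons, "older" stands for the mean of the old and very old mice (4) against the young (2).

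Cells were clustered without the 10 genes and without 32 further genes of the same pathway, and 8 classes with 20 or more cells in every mouse were named from marker genes. Levels are given as CPM, the UMIs of a gene scaled to the total of all UMIs of the class in a mouse. The HSC-like class was a single cluster of 4768 cells, 387 to 892 per mouse, led by Sult1a1, Nupr1, Ly6a, Ltb, Hlf and Procr, and its name rests on 5 HSC markers among its 50 leading genes. Its marker levels differed with age beyond the genes examined, and such sums cannot tell a changed make-up from changed levels within cells. Of 12 HSC markers, 11 were called higher in older mice (summed level 988 to 1116 CPM in the young, 1087 to 1652 in the older). Of 8 markers of multipotent progenitors (MPP), 5 were called lower, Cd34 and Flt3 among them (949 to 1197 against 368 to 622.5). Markers of megakaryocytes (5 of 10, summed level 177 to 215 against 258 to 419.5) and dendritic cells (3 of 9, H2-Aa, H2-Eb1 and Cd74, 336.5 to 505 against 589 to 649.6) were also called higher. The macrophage genes C1qb and C1qc were called lower (2 of 5 in that list, 30.5 to 32.3 against 3.25 to 13.8), as was Dntt of the lymphoid list, and 3 granulocyte progenitor markers (Gstm1, Prtn3 and Mpo, 2 higher and 1 lower) and Klrb1c, higher, passed as well. No marker was called among the few that could be tested for neutrophils (3 of 8), basophils or mast cells (3 of 8), eosinophils (1 of 4) and stroma (1 of 5), or for monocyte progenitors (6 of 7), early erythroid (10 of 10) and late erythroid cells (6 of 9), though the summed level of the last was 91.8 to 133 in young and 46.8 to 87.9 in older mice, without overlap. The part of these shifts in the results was not tested, except by splitting the cells by Cd34 and Flt3 and by leaving out cycling cells.

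In the mouse genome (GRCm38, GENCODE vM21), the inhibitors lie at chr17:29090976-29100727 (+, Cdkn1a), chr6:134920401-134925513 (+, Cdkn1b), chr7:143458339-143461050 (-, Cdkn1c), chr4:109660876-109667189 (-, Cdkn2c) and chr9:21288410-21291407 (-, Cdkn2d). The cyclins lie at chr7:144929931-144939925 (-, Ccnd1), chr6:127125162-127152193 (-, Ccnd2) and chr17:47505051-47599691 (+, Ccnd3), and the kinases at chr10:127063534-127067920 (+, Cdk4) and chr5:3341485-3531008 (+, Cdk6). All 10 are protein-coding and none overlaps another gene on its own strand. On the opposite strand, annotated genes overlap Cdkn1c, Ccnd1, Ccnd2, Ccnd3, Cdk4 and Cdk6, and whether the counting kept strands apart is not given in the sources used here.

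The 250 bases upstream of a transcription start were available for 7 of the 10 genes (RefSeq, GRCm38.p6). Those shown, 5′ to 3′, are the window of the first of the 2 Cdkn2c starts, a gene that was higher in older HSC-like cells, and those of Cdk4 and Cdk6, which were both higher in cells scored as cycling. Capitals mark 1 searched word in each, GGGCGG (the GC box) for Cdkn2c and CACGTG (the palindromic E-box) for Cdk4 and Cdk6. By the GENCODE positions above, the windows of Cdkn2c and Cdk6 lie inside the annotated genes, so these RefSeq starts are not the outermost ones.
Cdkn2c, chr4:109666757-109667006, minus strand: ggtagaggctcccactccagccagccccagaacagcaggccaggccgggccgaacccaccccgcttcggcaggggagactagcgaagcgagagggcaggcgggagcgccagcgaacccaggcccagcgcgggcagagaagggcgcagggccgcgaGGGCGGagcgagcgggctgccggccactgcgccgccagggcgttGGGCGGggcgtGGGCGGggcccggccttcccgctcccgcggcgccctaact
Cdk4, chr10:127063285-127063534, plus strand: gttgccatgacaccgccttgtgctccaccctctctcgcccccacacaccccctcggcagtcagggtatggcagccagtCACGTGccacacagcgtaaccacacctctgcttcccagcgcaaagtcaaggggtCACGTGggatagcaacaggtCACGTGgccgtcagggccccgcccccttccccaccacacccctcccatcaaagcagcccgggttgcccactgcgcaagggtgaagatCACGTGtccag
Cdk6, chr5:3343643-3343892, plus strand: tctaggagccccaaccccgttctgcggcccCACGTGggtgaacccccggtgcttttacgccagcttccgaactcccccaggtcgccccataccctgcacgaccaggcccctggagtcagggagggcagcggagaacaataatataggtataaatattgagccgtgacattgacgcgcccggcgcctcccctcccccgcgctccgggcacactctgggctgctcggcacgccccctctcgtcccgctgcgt
The Cdkn2c window held GGGCGG 3 times, a word found on either strand in 32.7% of all 32851 promoter windows of this length. The window of the second Cdkn2c start held none of the words searched. The Cdk4 window also held GGGCGG once, read on the opposite strand and not in capitals here. It held CACGTG 4 times, and the Cdk6 window held it once. That word occurred at least once in 6.02% of all windows and 4 or more times in 0.0213%. The E2F words TTTCGCGC, TTTGGCGC, TTTCCCGC and TTTGCCGC, present on either strand in 1.86% of all windows, were in none of the 10 windows of the 7 genes. Matches of letters are a description and say nothing of binding.

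Cdkn1c was concentrated in HSC-like cells. HSC-like cells held 58.9% of all Cdkn1c UMIs (1843 of 3131, 40.2 to 75.3% by mouse), although they made up 8.06% of the cells and 4.46% of all UMIs, while of the other 9 genes they held between 2.47% (Cdkn1a) and 9.04% (Ccnd2). Levels are compared between classes for a gene, not between genes. Since classes come from the same libraries and were built from the same cells, their order, taken over the 8 named classes, is a description without a test. In such sums, fewer cells with a transcript and fewer transcripts per cell cannot be told apart.

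**Figure D1:**
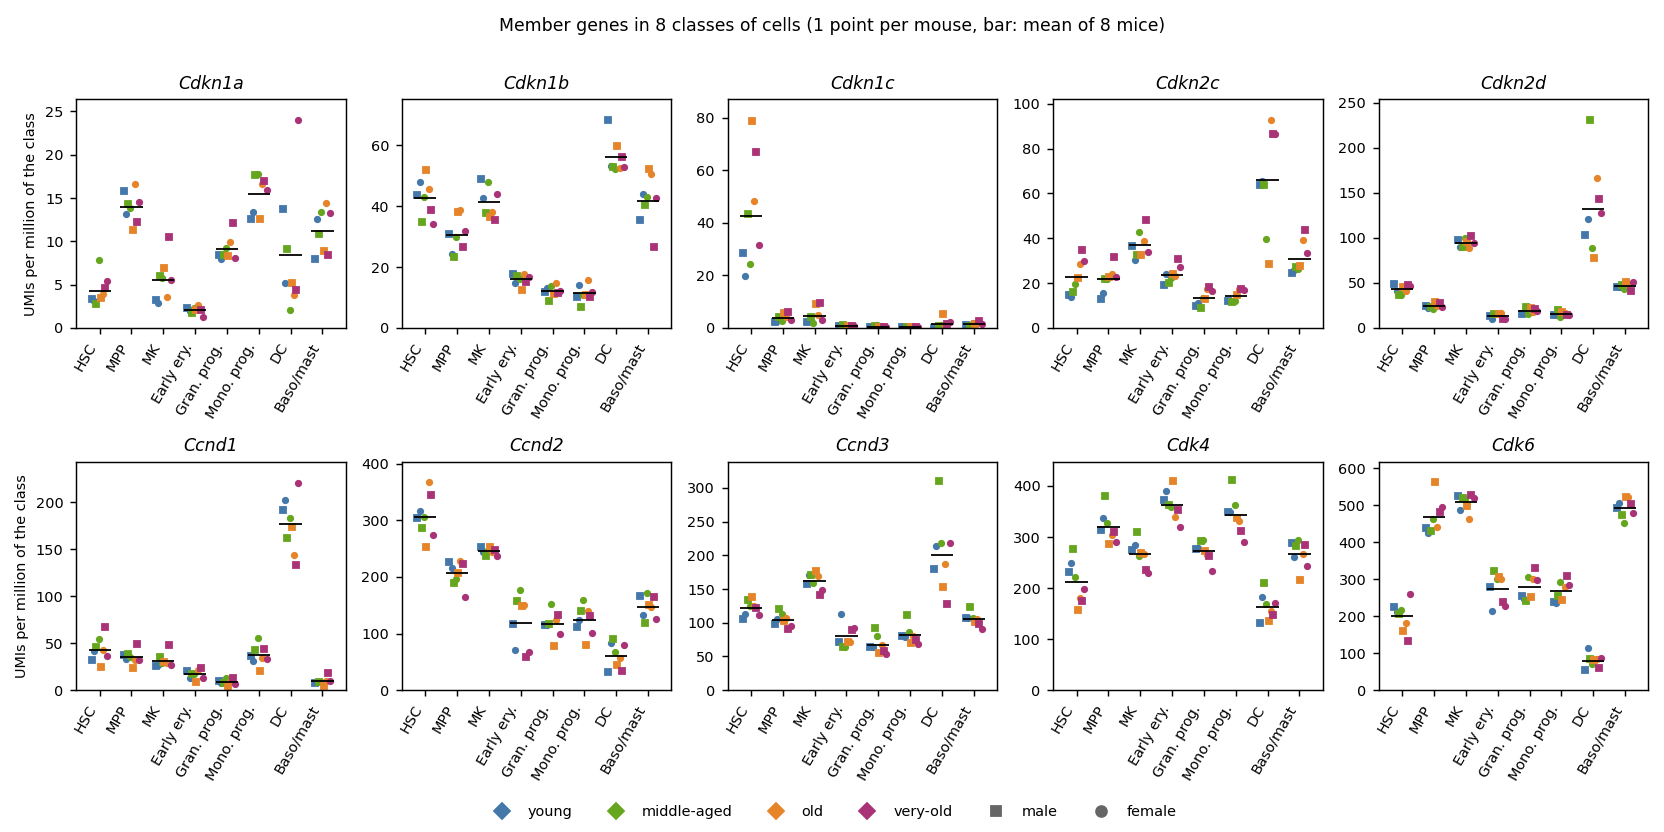
Level in CPM (vertical axis, linear) of the 10 genes in 8 classes of cells (horizontal axis). Each point is 1 mouse, colours give age, squares are males and circles females, and the bar is the mean of 8 mice. MK stands for megakaryocyte-like, DC for dendritic-like, Early ery. for early erythroid-like, Gran. prog. and Mono. prog. for granulocyte and monocyte progenitor-like and Baso/mast for basophil or mast-like cells. Cdkn1c lies between 19.8 and 78.9 in HSC-like cells, above every other class, and Cdk6 is lower in HSC-like (199) than in MPP-like (468) and megakaryocyte-like cells (508).

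Among the Cip and Kip inhibitors, Cdkn1c averaged 42.7 ± 21.1 CPM in HSC-like cells (SD, n = 8 mice, range 19.8 to 78.9). The next class, megakaryocyte-like cells, stood at 4.69 ± 3.01, did not overlap with it and overlapped with MPP-like cells (3.79); the other 5 classes were at 1.52 or less on average. After cells had been thinned to 4000 UMIs, which left out 439 of 4768 HSC-like cells as too shallow (63 of 842 in young and 321 of 2893 in older mice), 8.08 to 23.8% of the HSC-like cells left per mouse had a Cdkn1c UMI (14.7 to 38.2% before thinning, median 6930 to 10452 UMIs per cell). In monocyte progenitor-like cells (median 16796 to 30327 UMIs per cell), the share was at most 0.417% (46 of 3874 cells left out; at most 1.24% before thinning). Cdkn1b, which restrains cyclin E and Cdk2 as well as the D cyclin complexes, was ordered otherwise: dendritic-like cells led with 56.1 ± 5.61, HSC-like cells followed with 42.6 ± 6.25 without overlap, and basophil or mast-like (41.9) and megakaryocyte-like cells (41.3) overlapped with the latter. Unnamed clusters led by Itga2b (shallow for its libraries) and by Clec4d stood at 83.7 ± 12.2 and 56.7 ± 8.98. The shallower MPP-like cluster, of 3276 cells, stood at 59.8 ± 9.54 and the deeper, of 5280, at 26.8 ± 5.18. The name of the shallower rests on 3 MPP markers among its 50 leading genes, which also held 2 HSC markers. Early erythroid-like (15.985), granulocyte progenitor-like (12.1) and monocyte progenitor-like cells (11.3) lay below MPP-like cells (30.5) without overlap. Cdkn1a, a p53 target, was low in HSC-like cells, at 4.31 ± 1.67, against 15.4 ± 2.24 in monocyte progenitor-like, 13.958 ± 1.75 in MPP-like and 2.03 ± 0.428 in early erythroid-like cells. Of all neighbours in its order, only the pooled HSC-like and early erythroid-like classes lay apart, and single early erythroid-like clusters overlapped with HSC-like cells.

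The INK4 inhibitors had no such peak in stem cells. Cdkn2c averaged 22.6 ± 7.84 in HSC-like cells, with dendritic-like (65.9 ± 22.9) and megakaryocyte-like cells (36.9) above and granulocyte progenitor-like cells (13.5) lowest, and every class overlapped with its neighbour. The megakaryocyte-like clusters differed. That of 2496 cells averaged 16.25 in young and 19.1 in older mice, and that of 1850 cells, also led by cycling genes, 47.97 and 57.75. Cdkn2d stood at 132 ± 49.1 in dendritic-like and 94.6 ± 4.85 in megakaryocyte-like cells, the latter apart from basophil or mast-like (46.7) and HSC-like cells (43.035 ± 4.82). That gap held for the pooled class. The larger megakaryocyte-like cluster, at 46.8 to 67.0 in older mice, overlapped with HSC-like (36.7 to 49.1) and basophil or mast-like cells (41.4 to 51.5). The other stood at 125 to 143 in older mice. HSC-like cells in turn lay apart from MPP-like cells (24.2), and early erythroid-like cells were lowest (13.4).

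Of the D cyclins, Ccnd2 was the one for which HSC-like cells came first among the 8 named classes, at 307 ± 37.1, with megakaryocyte-like cells (246 ± 6.01) overlapping and MPP-like cells (206) apart from those. An unnamed cluster of 3790 cells led by Clec4d, Csrp3 and Gm15915 stood above HSC-like cells at 361 ± 33.3, with overlap, as did 1 of the megakaryocyte-like clusters at 324 ± 11.2. The other megakaryocyte-like cluster stood at 179 to 190 in young and 150 to 179 in older mice and overlapped with MPP-like cells (165 to 229). Ccnd1 was highest in dendritic-like cells (176 ± 29.4), apart from HSC-like cells (43.1 ± 13.3), which overlapped with monocyte progenitor-like (37.2), MPP-like (35.3) and megakaryocyte-like cells (31.015). Ccnd3 was also highest in dendritic-like cells (201 ± 54.8), followed by megakaryocyte-like cells (161 ± 12.6), which lay apart from HSC-like cells (122 ± 11.4).

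The kinases, the partners of the D cyclins, had their lowest mean among the 8 named classes in HSC-like cells, dendritic-like cells aside. Cdk6 stood at 199 ± 40.1 there, above dendritic-like cells alone (79.3), against 508 ± 22.9 in megakaryocyte-like, 494 in basophil or mast-like and 468 in MPP-like cells, which overlapped with each other and lay apart from the rest. In an unnamed cluster of 2385 cells led by Itga2b, Apoe and Mfsd2b, Cdk6 reached 956 ± 144. These cells were shallow, at 0.184 of the median UMIs of their libraries, and the part of depth in this level was not tested. Cdk4 averaged 211 ± 40.7 in HSC-like cells and 364 ± 28.0 in early erythroid-like cells, the highest class, and all neighbours in its order overlapped. Single clusters of other classes had a lower Cdk4 mean than HSC-like cells, with 131 ± 19.99 in the shallower MPP-like cluster (3276 of 8556 cells, against 343 ± 33.65 in the deeper), 123 in a granulocyte progenitor-like and 162 in an early erythroid-like cluster. Of the Cdk4 UMIs of MPP-like cells, 24771 came from the deeper cluster and 1277 from the shallower. The share of cells with an S or G2/M score, computed without the 10 genes, also differed between classes, from a median over mice of 11.7% in HSC-like to 93.8% in monocyte progenitor-like cells, and its part in these levels was not tested.

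Set against MPP-like cells, the next stage downstream, HSC-like cells were higher in every mouse without overlap for 3 of the 10 genes (Cdkn1c, Cdkn2d, Ccnd2; 10.5% of all genes did so) and lower for 3 (Cdkn1a, Cdk4, Cdk6; 6.67% of all genes), although Cdk4 in the shallower MPP-like cluster (97.8 to 166 CPM) averaged less than in HSC-like cells (157 to 276) and overlapped with them. Cdkn1a in that cluster (1.44 to 10.955) overlapped with HSC-like cells (2.81 to 7.87) as well. Against granulocyte progenitor-like cells, 6 were higher (Cdkn1b, Cdkn1c, Cdkn2d and the 3 D cyclins; background 34.2%) and Cdkn1a was lower (11.0%). Here too Cdkn1a overlapped in a single cluster, the one led by Wfdc21 and S100a8 (4.81 to 10.9). Against early erythroid-like cells, 6 were higher (the 3 Cip and Kip genes, Cdkn2d, Ccnd1 and Ccnd2; 33.4%) and Cdk4 was lower (17.8%). Single early erythroid-like clusters overlapped with HSC-like cells as well. In the shallowest, of 2581 cells, these were Cdkn1a (0 to 9.44, on 10 UMIs), Cdkn2d (13.2 to 39.9), Ccnd1 (14.2 to 46.2) and Cdk4 (232 to 371). The HSC-like ranges were 2.81 to 7.87, 36.7 to 49.1, 24.7 to 67.6 and 157 to 276. Cdkn1a also overlapped in the cluster of 2515 cells (1.51 to 4.85). Against megakaryocyte-like cells, Cdkn1c was the only gene of the 10 that was higher (14.8%), and Cdkn2d, Ccnd3 and Cdk6 were lower (11.8%). Single megakaryocyte-like clusters overlapped with HSC-like cells, however. For Cdkn2d this was the larger (46.8 to 67.0 CPM in older mice, against 36.7 to 49.1). For Ccnd3 it was the other (131.9 to 166.8 in older mice, against 105 to 139). Cdkn1c was thus higher in HSC-like cells in all 4 of these comparisons.

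For each gene, the most similar patterns of mean level over the 8 classes were sought among 9483 genes (Pearson's r of log2 values, a description over 8 points that share their libraries). Those nearest to Cdkn1c were Upp1 (r = 0.990) and Igtp (0.989), and to Cdkn1a Ctsa and Oser1 (0.94 each), and Cds2 (0.994) was among those nearest to Cdkn1b. Cdkn2c was nearest to Zfp143 (0.983) and Mknk1 (0.981), and Cdkn2d to Jarid2 (0.976) and Ubash3b (0.974). The D cyclins were nearest to Hdac9 (0.956) and Pigf (0.945, Ccnd1), Smad3 (0.993) and Zc3h7b (0.985, Ccnd2), and Atp2c1 (0.975) and Commd10 (0.969, Ccnd3), and the kinases to Shmt2 (0.983) and Trap1 (0.980, Cdk4) and 0610010F05Rik (0.9815) and Parg (0.9755, Cdk6).

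With age, 2 inhibitors rose in HSC-like cells, Cdkn1c by 2.47-fold and Cdkn2c by 2.17-fold. Of the 10 genes, 2 were called higher and none lower in older mice (edgeR quasi-likelihood test, Benjamini-Hochberg adjusted p under 0.05 over 11710 genes), where 9.28% of all genes were called, and 4 had an unadjusted p under 0.05. The median log2 fold change was 0.20 for the 10 genes and -0.01 for all genes. In every older mouse, 3 of the 10 genes (Cdkn1a, Cdkn1c, Cdkn2c) were above both young mice, which was so for 10.6% of all genes, and Cdk4 was below both, which was so for 26.4%.

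Cdkn1c stood at 28.4 CPM in the young male and 19.8 in the young female, at 43.5 and 24.3 in the middle-aged, 78.9 and 48.2 in the old, and 66.9 and 31.6 in the very old male and female. All older mice were above both young mice, and at each age the male was above the female. The older mice averaged 56.4 ± 20.8 (SD, n = 4) and the young 24.1 ± 6.04 (n = 2), a 2.47-fold difference in the fit (log2 1.30, SE 0.14, edgeR, adjusted p = 0.000232). Without the 95-week mice the log2 difference was 1.45 (adjusted p = 0.000297, edgeR, 6.96% of all genes called), and without cells that carried an S or G2/M score it was 1.30 (adjusted p = 2.59e-05, edgeR, 10.5% called), and in both settings Cdkn1c and Cdkn2c were the 2 of 10 genes called. Clustering without batch correction by Harmony gave a smaller HSC-like class of 2622 cells in which the Cdkn1c call was lost (log2 0.12, adjusted p = 0.919, edgeR), while Cdkn2c differed by 2.07 (adjusted p = 0.0101). Of the 10 genes, 1 was called there, where 1.4% of all genes were. Neither young mouse had an E2f8 UMI in that class, and with low counts the size of a difference depends on the prior count of the fit.

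Cdkn2c, which binds Cdk4 and Cdk6 directly, stood at 14.9 and 13.8 CPM in the young male and female, 16.2 and 19.7 in the middle-aged, 22.3 and 28.7 in the old, and 34.8 and 30.1 in the very old. The 4 older mice were all above the young and the middle-aged mice, and the very old mice above the old. Means were 28.976 ± 5.17 (n = 4) and 14.3 ± 0.779 (n = 2), a 2.17-fold difference (log2 1.12, SE 0.17, edgeR, adjusted p = 0.00215), and 0.89 on the log2 scale without the 95-week mice (adjusted p = 0.0187, edgeR). These levels rest on 53 and 57 UMIs in the young mice and on 125 to 212 in the older.

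**Figure D2:**
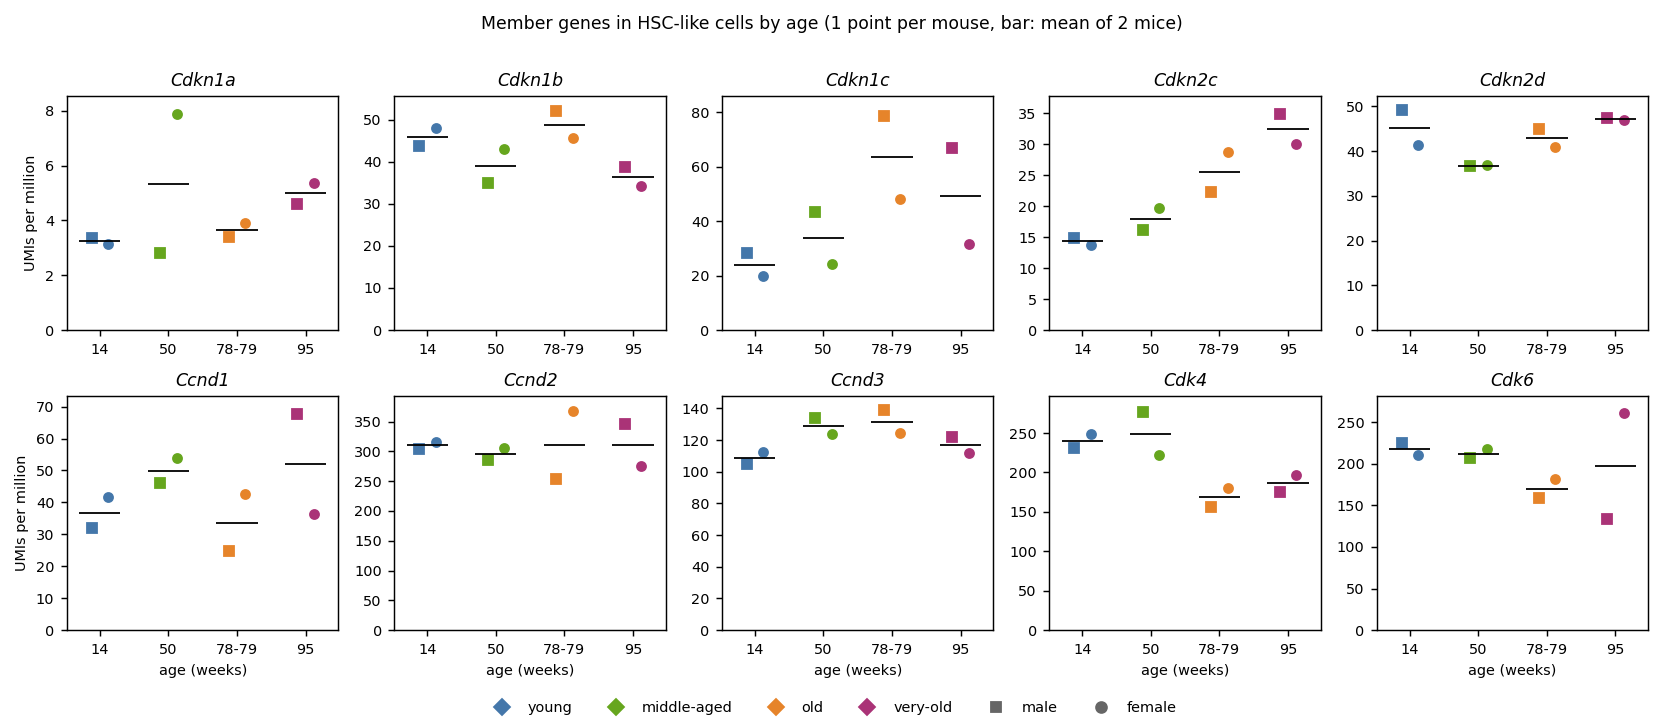
Level in CPM in HSC-like cells (vertical axis, linear, from 0) of the 10 genes by age in weeks (horizontal axis). Each point is 1 mouse, squares are males and circles females, and the bar is the mean of the 2 mice of an age. Cdkn2c lies at 13.8 to 14.9 in young and 22.3 to 34.8 in older mice, and Cdkn1c at 19.8 to 28.4 and 31.6 to 78.9.

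The other 8 genes did not pass the test. Cdk4 stood at 231 and 248 in the young male and female, 276 and 222 in the middle-aged, 157 and 181 in the old and 175 and 197 in the very old. All older mice were thus below the others, and the means were 177 ± 16.8 (n = 4) and 239.7 ± 12.2 (n = 2), yet the difference missed the threshold (log2 -0.32, SE 0.12, edgeR, adjusted p = 0.117). It passed when either middle-aged mouse was left out (adjusted p = 0.0145 and 0.0139, edgeR) and without a filter on low counts (0.0478), and without Harmony its sign turned (log2 0.16, adjusted p = 0.815, edgeR). Ccnd3 likewise passed without either of those middle-aged mice (0.0484 and 0.0474, edgeR).

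Ccnd3 stood at 105 and 112.4 in the young, 134 and 124 in the middle-aged, 139 and 124 in the old and 122 and 111.9 in the very old mice, so that 1 older mouse lay just within the young range (log2 0.30, SE 0.10, edgeR, adjusted p = 0.0907). Cdkn1a stood at 3.14 to 3.37 in the young and 3.40 to 5.38 in the older mice, on 12 to 34 UMIs per mouse (log2 0.53, SE 0.39, adjusted p = 0.453, edgeR). Cdk6 ranged from 211 to 225 in the young and from 134 in the very old male to 261 in the very old female (log2 -0.16, SE 0.17, adjusted p = 0.625, edgeR). These older mice lay on both sides of the young. Likewise, Ccnd1 spanned 32.0 to 41.6 in young and 24.7 to 67.6 in older mice (log2 0.29, SE 0.26) and Ccnd2 304 to 316 and 253 to 368 (0.12, SE 0.14), with edgeR adjusted p = 0.538 and 0.658. Cdkn1b (43.8 to 48.1 in young, 34.3 to 52.0 in older mice, log2 -0.0027, SE 0.13) and Cdkn2d (41.3 to 49.1 and 40.9 to 47.5, log2 0.11, SE 0.11) overlapped in the same way, with edgeR adjusted p = 0.993 and 0.602.

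The middle-aged mice, from the same library series as the young, did not differ from them at the threshold for any of the 10 genes. Neither edgeR (1.55% of all genes called) nor DESeq2 called a member of the list, and 2 genes had an unadjusted p under 0.05 in edgeR. These were Cdkn1c, with a log2 difference of 0.54 (SE 0.17, edgeR, adjusted p = 0.159), and Ccnd3, with 0.31 (adjusted p = 0.244). Cdkn2c differed by 0.39 (adjusted p = 0.433, edgeR). This comparison shares its young mice with that of older mice.

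Cdkn1c also differed by sex, a comparison made after the values had been seen. The 4 males averaged 54.4 ± 22.8 and the 4 females 31.0 ± 12.5 CPM in HSC-like cells, and the male was higher at 4 of 4 ages (log2 0.81, SE 0.11, edgeR, adjusted p = 0.00564). It was the only gene of the 10 called for sex, where 0.461% of all genes were called, and next among the others were Cdkn1a (-0.50, adjusted p = 0.559, edgeR) and Cdk6 (-0.27, adjusted p = 0.493). Leaving out each mouse in turn gave a log2 difference of 0.70 to 0.88 (edgeR adjusted p 0.0041 to 0.0441), and without cells scored for S or G2/M it was 0.79 (adjusted p = 0.000701). Cdkn1c is an imprinted gene, expressed from the maternal allele. The age test holds a term for sex, and without that term its adjusted p for Cdkn1c was 0.04996 (edgeR).

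Because Cd34 and Flt3, both of which mark MPP rather than the most primitive HSC, were lower in older mice, the HSC-like cells were split, after the data had been seen, into cells with no UMI of either gene and the rest. Cells without such a UMI made up 7.49 and 13.85% of the class in the young male and female, 34.6 and 32.6% in the middle-aged, 46.3 and 43.6% in the old and 61.5 and 39.0% in the very old. The share was lowest in both young mice, where these cells numbered 29 and 63. The split used cells before thinning, and those without such a UMI were shallower in every mouse. For example, their median was 6880 UMIs against 9081.5 in the young female. HSC-like cells were also shallower in older mice (median 6930 to 8044 UMIs) than in young mice (8685 to 9276). Having no UMI depends on depth too, and its part in the share was not tested.

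Among cells without a UMI of Cd34 or Flt3, Cdkn1c stood at 94.6 and 43.7 CPM in the young male and female (19 UMIs each), 67.8 and 61.6 in the middle-aged, 109 and 76.4 in the old and 81.8 and 56.4 in the very old. Young and older mice overlapped, and the difference did not pass the test (log2 0.46, SE 0.25, edgeR, adjusted p = 0.591). Cdkn2c stood at 9.20 in the young female (4 UMIs) and had no UMI in the young male, against 21.5 to 34.2 in the older mice, without overlap. It was the only 1 of 9 tested genes called in these cells (log2 2.39, SE 0.55, edgeR, adjusted p = 0.0196), where 1.33% of all genes were called. With counts this low, the size of that difference depends on the prior count of the fit.

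Among cells with a UMI of Cd34 or Flt3, Cdkn1c was lower in general, at 24.4 and 17.0 in the young male and female, 32.7 and 10.5 in the middle-aged, 56.3 and 31.5 in the old and 46.7 and 18.1 in the very old. The very old female lay between the young mice, and the difference passed the test (log2 0.90, SE 0.20, edgeR, adjusted p = 0.0264). Cdkn2c stood at 15.8 and 14.3 in the young, 17.2 and 19.0 in the middle-aged, 22.9 and 28.9 in the old and 37.9 and 27.8 in the very old. All older mice lay above the young here too (log2 1.03, SE 0.19, edgeR, adjusted p = 0.00689), and these 2 of the 10 genes were called where 3.18% of all genes were. The Cdkn2c call was therefore made on both sides of the split, and the Cdkn1c call on the side with more young cells. Whether the Cdkn1c difference itself differs between the sides was not tested.

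**Figure D3:**
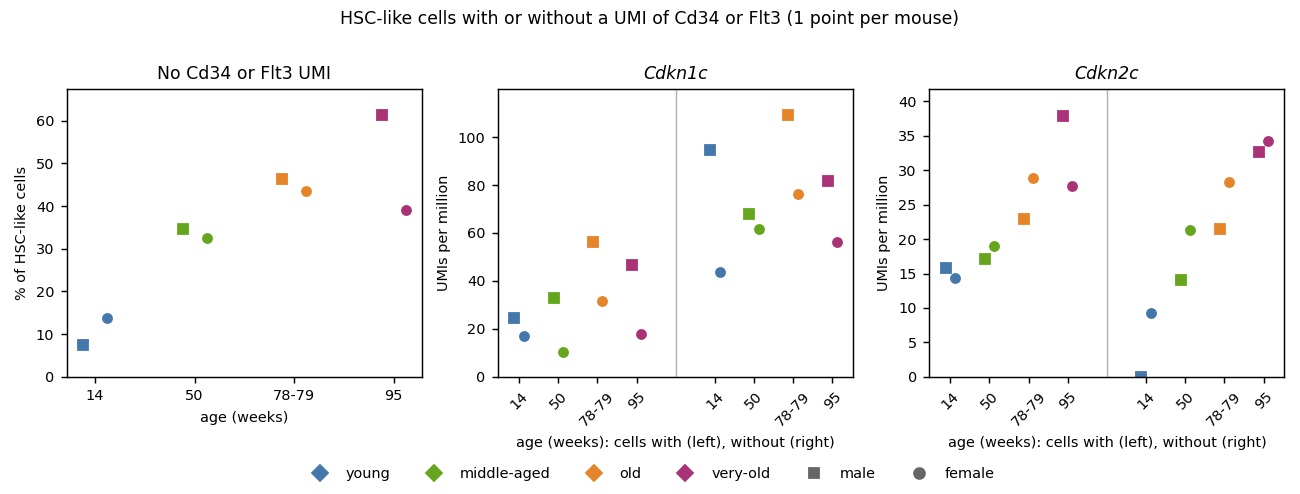
Left, share of HSC-like cells with no UMI of Cd34 or Flt3 (%, vertical axis) by age in weeks, in cells before thinning. Middle and right, CPM of Cdkn1c and Cdkn2c by age in cells with (left of the grey line) and without (right of it) such a UMI, 1 point per mouse, squares males and circles females. Cdkn1c in cells without a UMI of either gene is at 43.7 to 94.6 in young and 56.4 to 109 in older mice, whereas Cdkn2c is at most 9.20 in young and at least 21.5 in older mice there.

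In the other 7 classes, older and young mice were compared in the same way. MPP-like cells shared the Cdkn2c difference: 12.9 and 15.6 CPM in the young male and female, 21.8 and 21.7 in the middle-aged, 22.8 and 24.1 in the old and 31.7 and 22.5 in the very old. The young mice were below all others (1.80-fold, log2 0.85, SE 0.14, edgeR, adjusted p = 0.0107). It was 1 of 10 genes called in a class where 0.978% of all genes were, and 3 had an unadjusted p under 0.05. The call was lost without the young male (log2 0.63, adjusted p = 0.376, edgeR). Of the 2 clusters in this class, the deeper had 13.6 ± 2.10 in young and 25.6 ± 4.79 in older mice and the shallower 19.1 ± 3.05 and 22.5 ± 3.85, with overlap. Cdkn1c in MPP-like cells was at 2.09 and 2.66 in the young and 2.86 to 6.03 in the older mice (log2 0.99, SE 0.29, edgeR, adjusted p = 0.183). Other markers moved in this class too: 3 of 12 HSC markers (Procr, Vwf and Myct1) were called higher in older mice, with a summed level of 254 to 347 CPM in the young and 309 to 443 in the older, as were 3 of 10 megakaryocyte markers (78.5 to 107 against 115 to 161). None of 8 MPP markers was called (1383 to 1601 against 1210 to 1422). Of the macrophage list, 3 of 5 were called lower (17.0 to 21.4 against 2.78 to 11.3), and of the dendritic list 3 of 9 were higher and 1 lower (168 to 195.5 against 194.5 to 236). Irf8 was called lower and Fcer1a higher. Their part in the result was not tested.

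In megakaryocyte-like cells Cdkn1a was called higher, at 3.25 and 2.84 in the young male and female, 6.02 and 5.79 in the middle-aged, 6.93 and 3.57 in the old and 10.5 and 5.51 in the very old (24 to 88 UMIs per mouse). The young mice were again lowest (2.09-fold, log2 1.06, SE 0.26, edgeR, adjusted p = 0.0473), and this was 1 of 10 genes called where 2.52% of all genes were, with 3 at an unadjusted p under 0.05. The call was lost with DESeq2 (adjusted p = 0.357), without the sex term (0.146, edgeR), without the 95-week mice (0.415), with likely doublets removed (0.0537) and in 7 of 8 fits that left out a mouse (adjusted p 0.0263 to 0.617). Within each of the clusters of this class young and older mice overlapped, at 2.61 to 4.44 against 3.34 to 17.1 in one and 1.51 to 3.82 against 3.77 to 7.81 in the other. Cdkn1c in these cells, at 2.30 and 2.84 in young and 2.97 to 9.42 in older mice, had a log2 difference of 1.28 (SE 0.33, edgeR, adjusted p = 0.053). In this class, 6 of 12 HSC markers (summed level 404.5 to 411 CPM in the young, 501 to 583 in the older) and 4 of 10 megakaryocyte markers (2812 to 3684 against 4230 to 5803) were also called higher in older mice. Called lower were 3 of 10 early erythroid markers (Car1, Ermap and Klf1, 1313 to 1368 against 1048 to 1247) and Cd48, and H2-Aa and H2-Eb1 were called higher. Their part in the result was not tested.

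No member of the list was called by edgeR in the remaining classes. These were basophil or mast-like (9 genes tested, 1 at an unadjusted p under 0.05, 0.0389% of all genes called), dendritic-like (9, 0 and 0.0%), early erythroid-like (10, 1 and 0.0%), granulocyte progenitor-like (9, 1 and 0.00869%) and monocyte progenitor-like cells (9, 2 and 0.16%). DESeq2 made 1 call over all 7 classes, where 0.297% of all genes were called. Cdkn2c was above 0 on the log2 scale in each of these 5 classes, from 0.30 in dendritic-like and early erythroid-like to 0.63 in granulocyte progenitor-like cells (adjusted p = 0.335, edgeR). Cdkn1c was below the count filter in 4 of them.

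**Figure D4:**
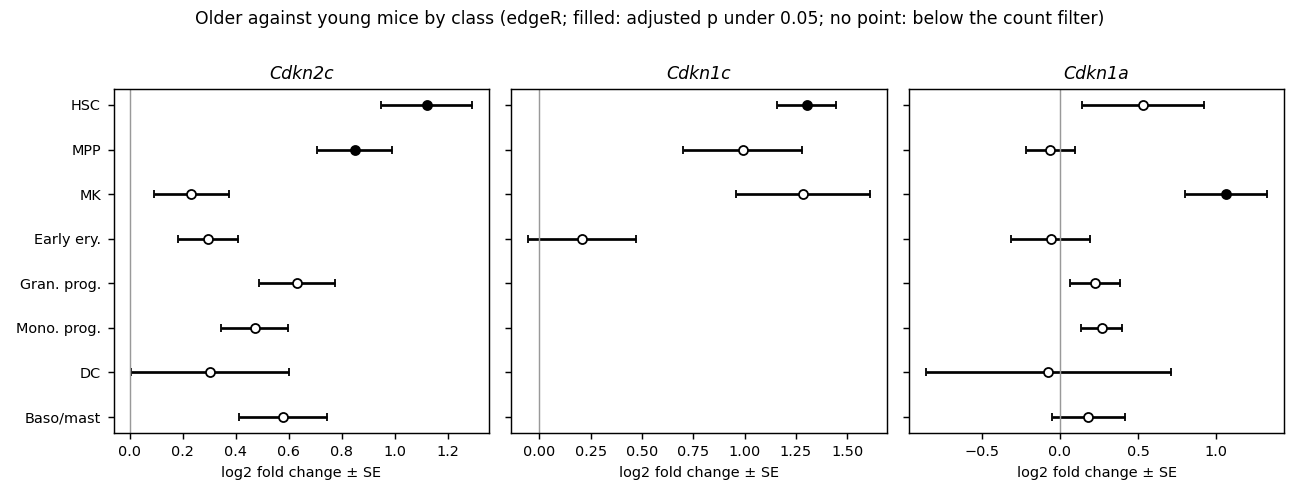
Log2 fold change of older against young mice (horizontal axis, edgeR estimate ± SE, each panel with its own scale) for Cdkn2c, Cdkn1c and Cdkn1a in 8 classes (vertical axis; MK megakaryocyte-like, DC dendritic-like). Filled points have an adjusted p under 0.05, and a missing point was below the count filter. Cdkn2c is filled in HSC-like (1.12) and MPP-like cells (0.85), Cdkn1c in HSC-like (1.30) and Cdkn1a in megakaryocyte-like cells (1.06).

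Whether the age difference itself differed between HSC-like cells and another class was tested on the difference per mouse with limma, and no member was called against any of 4 classes. The background of called genes was 0.0% against MPP-like, 0.0463% against granulocyte progenitor-like, 0.45% against early erythroid-like and 0.117% against megakaryocyte-like cells. Nearest to the threshold was Cdkn2c, whose log2 difference exceeded that of megakaryocyte-like cells by 0.89 (SE 0.11, limma, adjusted p = 0.0857) and that of early erythroid-like cells by 0.80 (adjusted p = 0.154). For Cdkn1c the excess was 1.08 over early erythroid-like (SE 0.37, limma, adjusted p = 0.287), 0.36 over MPP-like (0.638) and 0.10 over megakaryocyte-like cells (0.922). At an unadjusted p under 0.05 stood Ccnd3 in all 4 comparisons, Cdkn2c in all but that with MPP-like cells, and Cdkn1c in that with early erythroid-like cells. No other tool was run for this comparison. The age differences of Cdkn1c and Cdkn2c were therefore not shown to be particular to HSC-like cells.

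Within HSC-like cells, 7 of the 10 genes differed between cells scored as cycling and the rest, and 3 did so after thinning and a new scoring. Each mouse's cells were divided into those scoring above 0 for S or G2/M genes, computed without the 10 genes and the pathway genes, and the rest, and both sums were compared within mice. Positive cells made up 13.2 and 22.9% in the young male and female, 22.1 and 10.4% in the middle-aged, 1.91 and 8.87% in the old and 5.20 and 12.995% in the very old, and with cells thinned to 4000 UMIs before scoring, the 439 shallower cells left out, the shares were 36.7 and 46.4%, 41.1 and 29.3%, 13.03 and 29.2%, and 19.9 and 30.2%. That second scoring also used HSC-like cells alone and more control genes than the first. The change in share therefore cannot be put down to depth alone, and its difference between ages was not tested. Between 3.36 and 9.52% of a mouse's HSC-like cells had a score within 0.05 of 0, the cut. Of all genes, 34.5% were called between the sums, and so were 7 of the 10. Positive and negative cells may also differ in make-up, since 38.5 to 92.5% of the class by mouse carried a Cd34 or Flt3 UMI. The share of positive cells was larger in MPP-like cells (median 61.8%) than in HSC-like cells (11.7%). Differences in level can hold such differences in make-up, whose part was not tested.

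The kinases were higher in positive cells. Cdk4 ranged from 289 to 394 CPM in positive and from 152 to 227 in negative cells, without overlap, and was higher in 8 of 8 mice (334 ± 34.2 against 188 ± 27.2, log2 0.77, SE 0.055, edgeR, adjusted p = 5.91e-21). Cdk6 was also higher in 8 of 8 mice (296 ± 46.7 against 184 ± 37.2, log2 0.60, SE 0.062, edgeR, adjusted p = 1.9e-13), with its smallest step in the young male, from 219 to 249.8. Ccnd1 was higher in 6 of 8 mice (49.3 against 40.9, log2 0.31, SE 0.11, edgeR, adjusted p = 0.0195), but this call was lost with DESeq2 (adjusted p = 0.161) and without the young male (0.0607), the young female (0.0927) or the middle-aged male (0.123, edgeR).

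Of the inhibitors, 3 were lower in positive cells. Cdkn1c was lower in 8 of 8 mice, at 24.1 ± 13.7 in positive and 45.7 ± 20.9 in negative cells (log2 -1.04, SE 0.13, edgeR, adjusted p = 3.49e-10), for example 51.2 against 79.5 in the old male and 8.12 against 27.0 in the middle-aged female. Cdkn1b (33.4 against 44.8, log2 -0.55, SE 0.12, adjusted p = 7.74e-05, edgeR) and Cdkn2d (31.8 against 45.1, log2 -0.55, SE 0.12, adjusted p = 0.000139, edgeR) were likewise lower in 8 of 8 mice. Cdkn2c, by contrast, stood at 22.0 against 22.4 (higher in 4 and lower in 4 mice, log2 -0.01, adjusted p = 0.985, edgeR). Ccnd2 was lower in positive cells in 6 of 8 mice (283 against 315, log2 -0.26, SE 0.059, edgeR, adjusted p = 0.000186), and neither Ccnd3 (-0.06, adjusted p = 0.525, edgeR) nor Cdkn1a (0.68 on 36 UMIs in positive cells, adjusted p = 0.0891) passed the test.

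Positive cells were deeper, with a median of 8169 to 14877 UMIs per mouse against 6747 to 10319. After thinning to 4000 UMIs, with the 439 shallower cells left out and the rest scored again, where 13% of all genes (1020 of 7846) were called, 3 of the 7 calls were made: Cdk6 (log2 0.54, adjusted p = 1.01e-10, edgeR), Cdk4 (0.35, adjusted p = 2.72e-06) and Cdkn1c (-0.59, adjusted p = 0.000391). Those of Cdkn1b (-0.09, adjusted p = 0.739, edgeR), Cdkn2d (-0.13, adjusted p = 0.573), Ccnd2 (-0.13, adjusted p = 0.0815) and Ccnd1 (-0.03) were not. Depth, cells and scoring all changed between these fits, so their parts cannot be told apart.

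**Figure D5:**
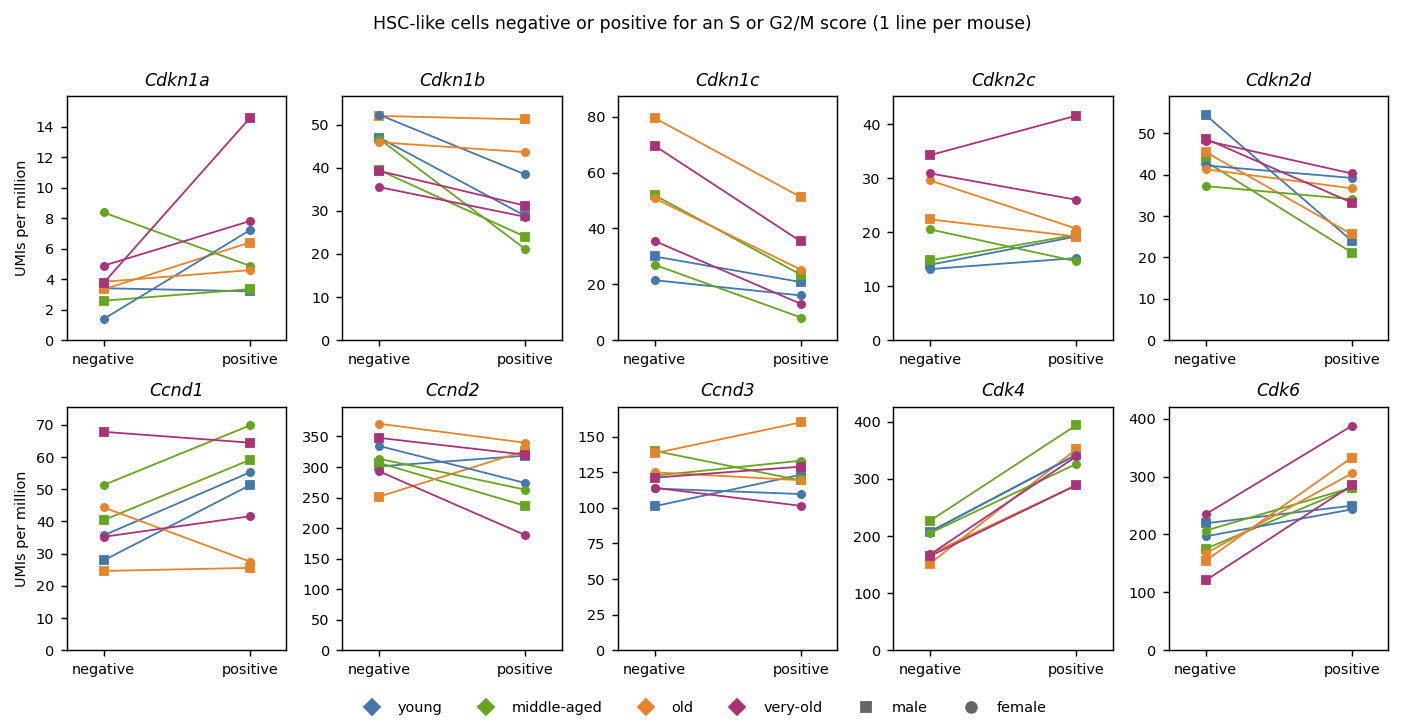
Level in CPM (vertical axis, linear, from 0) of the 10 genes in HSC-like cells negative or positive for an S or G2/M score (horizontal axis), 1 line per mouse, coloured by age, squares males and circles females. Every line rises for Cdk4 and Cdk6, and every line falls for Cdkn1b, Cdkn1c and Cdkn2d, 8 of 8 mice in each case, before thinning.

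Variability between HSC-like cells of a mouse was measured as the variance of thinned, log-normalised values relative to the trend of variance on mean. Of 8 genes detected in enough cells (Cdkn1a and Cdkn2c were not), none was called between older and young mice (limma), where 0.495% of all genes were called, and 2 had an unadjusted p under 0.05, Ccnd2 and Cdk4; no other tool was run. For Ccnd2 the log2 mean-adjusted variance was 0.197 ± 0.047 in older and 0.299 ± 0.072 in young mice (difference -0.10, SE 0.027, limma, adjusted p = 0.262), and for Cdk4 it was 0.025 and 0.169 (-0.14, SE 0.041, adjusted p = 0.315). Cdk6 (0.09, adjusted p = 0.739, limma) and Cdkn1c (0.01, adjusted p = 0.948) were not called either. Without thinning, where 11.2% of all genes were called, Cdkn2c (0.30, adjusted p = 0.0402, limma) and Ccnd3 (0.32, adjusted p = 0.0348) were called. In that setting 9 of 9 members tested had a difference above 0, as did 98.6% of all genes (median 0.19).

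Among 32 further genes of the passage from G1 to S phase, such as E2F factors, retinoblastoma family members, Cdk2 and cyclins E and A, 29 were tested in HSC-like cells and 1 (3.45%) was called lower in older mice, none higher, where 9.28% of all genes were called and 2.81% were called lower. This was E2f8, a repressive E2F, at 8.14 and 9.67 CPM in the young, 6.78 and 6.02 in the middle-aged, 2.07 and 4.59 in the old and 3.62 and 4.49 in the very old male and female. All older mice were below the others (log2 -1.20, SE 0.29, edgeR, adjusted p = 0.0256), and in cells with neither score positive the difference was -1.13 (adjusted p = 0.0924, edgeR). The E2f8 call was lost in 12 of 21 alternatives, among them DESeq2 (adjusted p = 0.168), age as a slope (0.0693, edgeR), thinned cells (0.111) and leaving out the young male (0.246), the young female (0.144), the old male (0.0939) or the very old male (0.0637). It was also lost without Harmony (adjusted p = 0.580, edgeR), where neither young mouse had an E2f8 UMI in the smaller HSC-like class and no fold is given. Of the 29 genes, 23 had a negative log2 difference (median -0.45) against 51.5% of all genes, and 13 (44.8%) had an unadjusted p under 0.05, 11 of them lower (37.9%), against 24.1% and 10.5% of all genes. The share of cells with an S or G2/M score, given above, was 1.91 to 12.995% in older and 13.2 to 22.9% in young mice, a difference that was not tested. With those cells left out, 26 of the genes were tested and none was called (10.5% of all genes were). At an unadjusted p under 0.05 (edgeR) stood 5 (19.2%, against 23.5% of all genes), 4 of them lower (15.4%, against 10.1%). A negative log2 difference was found for 19 (median -0.14, against -0.29 for the same genes in all HSC-like cells), and 20 of 26 lay nearer to 0 than in all cells. For example, E2f1 went from -1.10 to -0.25, Dtl from -1.03 to -0.55 and Cdk2 from -0.53 to -0.44 (adjusted p = 0.746, 0.164 and 0.0724 in the cells left, edgeR; chosen after their values were seen). Others moved little, such as Cdc25a (-0.57 to -0.54), or away from 0, such as Ccne1 (-0.61 to -0.67) and Cdk7 (-0.17 to -0.29). The change between the 2 fits was not tested. The INK4 genes Cdkn2a and Cdkn2b, known for their rise in senescent cells, were at or near 0 in HSC-like cells. No mouse exceeded 0.165 CPM, and 3 UMIs, the limit that a count of 0 allows for counting error, correspond to 0.443 to 0.842 CPM.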

How the data were processed

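Lineage-negative, c-Kit+ bone marrow cells of 8 wild-type mice were profiled, 1 library per mouse. The authors ran Cell Ranger on the reads and deposited its raw counts of UMIs, by gene and by barcode called a cell, which were not normalized. The matrix headers name version 6.0.0, the study's methods name another, and the labels name the build mm10 and differ on the version of the 3′ kit. The deposited files used here hold no cell types.

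Cells with 200 or more genes were kept. Of the variable genes, 2000 were used, without the 10 genes and the pathway list, and batch correction of 30 principal components followed the Harmony method in code written for this purpose (theta 1). Leiden clustering (leidenalg 0.10.2, scanpy 1.11.5, Python 3.11.15, 20 neighbours, resolution 0.8) gave 27 clusters. Names required at least 3 markers of a class among the 50 leading genes of a cluster, unless another class had more of the first 10. A cluster also stayed unnamed when classes tied. The same held when its cells were shallow for their libraries and the first 10 genes held no marker of the class. The granulocyte progenitor-like class includes a cluster led by Prg2 and Prg3, and 1 of the 2 megakaryocyte-like clusters was also led by cycling genes. Doublets were kept. Scrublet called 0.0581 to 3.02% of cells per library, under 0.5% in 3 of 8, so an alternative removed the 334 to 604 top-scoring cells of each library.

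UMIs were summed per mouse and class and the sums tested with edgeR 4.0.16 in R 4.3.3 (TMM, filterByExpr, quasi-likelihood, terms for age group and sex, Benjamini-Hochberg over all genes), for the S or G2/M comparison with the mouse as a block. Differences between classes and mean-adjusted variance used limma 3.58.1 (prior count 2 in log2 CPM; variance in genes with a UMI in 10% of cells, called at a log2 difference beyond 0.1). DESeq2 1.42.0 was an alternative. Positions came from GENCODE vM21 and promoters from RefSeq. The tests were checked on simulated data.

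All 10 genes are named throughout, with the pathway genes that passed the test and, for each gene, the 2 genes with the most similar pattern among those at 10 CPM or more in a class. 1 of these is not reported here. The members, the lists and the marker lists were chosen with earlier results of these data known. Alternatives covered the tool, filters, sex term, age as a slope, 95-week mice, Harmony, resolution, clustering genes, doublets, cycling cells, thinning, trend, and leaving out each mouse. Sums of 3561311 to 6769783 UMIs per mouse in HSC-like cells limit the precision.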

Additional observations from a re-analysis of the deposited data

Results flagged for a closer look

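In 160 groups of mice (each of the 10 genes in each of 8 classes, for all 8 mice and for the 4 older mice), 11 had an extreme mouse far from the others by Dixon's test, which chance does for about 1 in 20 groups. None was in HSC-like cells. The very old male was the highest mouse in 5 of the 11. Its Cdkn2c level in MPP-like cells was 31.7 CPM (247 UMIs), against 22.5 to 24.1 in the other older mice. Its Ccnd1 level in megakaryocyte-like cells was 47.9 (402 UMIs), the highest both of the 4 older mice, where the next was 29.8, and of all 8, where the next was 35.3. In basophil or mast-like cells its Ccnd1 level was 17.7 (36 UMIs, next 9.75), and its Cdkn1a level in granulocyte progenitor-like cells was 12.1 (97 UMIs, next 9.87). In dendritic-like cells, the smallest class, Cdkn1a was 23.98 in the very old female on 10 UMIs (next 5.19), Cdkn1b was 68.5 in the young male on 30 UMIs (next 59.7), Cdkn1c was 5.19 in the old male on 2 UMIs (next 2.4), and Cdkn2c was lowest in the old male at 28.5 on 11 UMIs, against 86.3 to 92.8 in the other older mice. In monocyte progenitor-like cells, Cdkn2c was lowest among older mice in the old male at 14.5 (182 UMIs, next 17.1), and Ccnd3 was highest in the middle-aged male at 112.2 (1110 UMIs, next 86.9). No explanation of these values was tested.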

How the results depend on the processing

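In HSC-like cells, 2 of the 10 genes were called for age, 3 without a filter on low counts (9.48% of all genes called), 1 without Harmony (1.4%), 1 in cells without a UMI of Cd34 or Flt3 (1.33%, chosen after the data were seen) and 2 to 4 when each mouse was left out in turn (1.07 to 12.5%), 4 without either middle-aged mouse (12.5%). Of 209 refits of single genes, 182 kept their direction and side of the threshold. The pathway count of 1 was 0 with DESeq2, with age as a slope, without Harmony, with clusters made without S and G2/M genes, without S or G2/M positive cells, and in cells with or without a UMI of Cd34 or Flt3. It was 2 at a resolution of 1.6 and with thinned cells, 3 without the 95-week mice, 7 without a filter on low counts and 0 to 7 when each mouse was left out (7 without either middle-aged mouse, 5 without the old female, 0 without either young mouse or either male of the older ages). The 2 calls in other classes became 1 with DESeq2, without the sex term, without the 95-week mice and with doublets removed, 6 without a filter (1.09% of all genes over the 7 classes, against 0.568%), and 0 to 2 when each mouse was left out (0.0595 to 0.712%). Of all genes over the 7 classes, 0.297% were called with DESeq2, 0.173% without the sex term, 0.443% without the 95-week mice and 0.553% with doublets removed. For middle-aged against young mice, 2 of 10 genes were called without a filter (3.59% of all genes) and none otherwise. The 7 calls between S or G2/M positive and negative cells became 3 with thinned cells scored again, and variance calls went from 0 to 2 without thinning. The cause was not tested in any of these.

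Signs turned for genes that did not pass the test as reported, except Ccnd1 in the S or G2/M comparison. For age in HSC-like cells on the log2 scale, Cdkn1b was 0.0014 without a filter, 0.17 without the 95-week mice and 0.050 with clusters made without S and G2/M genes, Cdkn2d was -0.0019 without the 95-week mice and -0.0036 without Harmony, and Ccnd1 was -0.091 without the 95-week mice. Without Harmony, Ccnd2 was -0.35, Cdk4 0.16 and Cdk6 0.43. Ccnd2 was -0.27 in cells without and Cdk6 0.16 in cells with a UMI of Cd34 or Flt3. Leaving out each mouse gave -0.092 to 0.088 for Cdkn1b, -0.097 (without the very old male) to 0.56 for Ccnd1, -0.078 (without the old female) to 0.25 for Ccnd2 and -0.44 to 0.081 (without the young male) for Cdk6. For S or G2/M positive against negative cells, Ccnd1 was -0.030 with thinned cells, and leaving out each mouse gave -0.099 to 0.0044 for Ccnd3 and -0.091 to 0.057 for Cdkn2c. Of 240 class levels recomputed, 8 moved by more than the spread between mice.

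No analysis paired by replicate number was possible because the labels carry none. Sex, shared across ages, was a term of the age fits, and the S or G2/M comparison was made within mice. With 2 young mice, a left-out young mouse leaves an arm of 1, assumed to vary like the others. Low counts limit Cdkn1a in HSC-like cells (12 to 34 UMIs per mouse) and most genes in dendritic-like cells. Markers of the HSC-like class differed with age, Cd34 and Flt3 among them, so differences in level can hold differences in make-up. No test was run of the share of cells with an S or G2/M score.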
